A study of Mus musculus with 2 samples.

Results

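The genes described here are 8 GC-rich genes with short introns, Ifrd2, Prrc2a, Ccdc22, Pigt, Fam173a, Metrn, Amdhd2 and Idh2, whose transcripts were scarcer in mouse embryonic stem cells given small interfering RNA (siRNA) against Son than in control cells. They are 8 of the 32285 genes listed in the deposited matrices and were taken by symbol. They had been chosen by their measured ratios in cells, which were among the lowest of all genes in an earlier look at the same libraries. The ratio in cells is therefore a description and supports nothing. The same holds for the GC content and intron lengths that name the set. Ratios are given as log2 of sonKD over control, on CPM (counts per 1000000 unique molecular identifiers, or UMIs, of a class of barcodes). Among the 8063 genes whose mean level in cells reached 10 CPM, the 8 genes held ranks 1, 2, 3, 5, 6, 8, 10 and 11 from the lowest ratio. Lmnb2 at -1.02, Lefty2 at -0.96 and Vars at -0.95 took the places between them. The last of the 8 by rank was Idh2 at -0.94, and the next genes outside were Ass1 and Tuba1a, both at -0.89.

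SON is a large protein of nuclear speckles, the bodies of the nucleus that store and modify splicing factors. It binds RNA and helps the spliceosome to remove introns, above all those with weak splice sites. Genes in GC-rich, gene-dense parts of the genome tend to lie near speckles, and their short introns are often recognised as units across the intron itself.

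The data are single-cell transcript counts from E14 mouse embryonic stem cells of a 129/Ola background, grown in serum with leukaemia inhibitory factor. They were transfected by lipofection with a control siRNA or with Son siRNA and harvested 24 hours later. The cells were frozen, thawed, sorted for viability with the dye 7-AAD and barcoded with the 10x Genomics 3' v3 chemistry, which counts polyadenylated RNA near its 3' end. Each group was 1 library, named control and sonKD here, so the difference between libraries and the effect of the siRNA cannot be told apart, and no test was made. Intervals in brackets are at 95% and cover counting error only.

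The control library held 71046373 UMIs and the sonKD library 60352438. Cells were barcodes with 2500 UMIs or more, 1000 genes or more and no more than 10% of UMIs from mitochondrial genes. They numbered 4978 and 2731, with medians of 7737.5 and 11612 UMIs. All 12 naive stem cell markers examined were above 10 CPM in cells, and their summed level was 9114 CPM in control and 9845 CPM in sonKD. Of the 12, 10 had ratios below 0, with a median of -0.08, and the higher sum came with Dppa5a, at 5027 and 6075 CPM. None of 6 fibroblast, 6 primitive endoderm or 6 trophoblast markers reached 10 CPM, with summed levels of 3.68 to 12 CPM per list and library, and Col3a1 and Elf5 were at 0. Son itself was at 169 CPM in control cells and 106 CPM in sonKD cells, a log2 ratio of -0.67 (-0.73 to -0.61). The UMI share of ribosomal protein genes was 19.1% over control cells and 22.5% over sonKD cells. With ribosomal protein and mitochondrial genes left out of the total, the ratios of the 8 genes lay between -1.02 and -0.87.

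In cells, all 8 genes had lower levels in sonKD, at 47.0% to 52.3% of control, and their log2 ratios lay between -1.09 and -0.94 with a median of -0.99. The median of all 8063 genes was -0.12, and their 5th percentile was -0.40. A log2 ratio of -0.5 or below, that is 70.7% of control or less, was met by 8 of 8 genes and by 2.39% of all genes, and nothing is read from this count because the same ratios chose the genes. Levels of different genes are not compared, since each gene's count also depends on its 3' end.

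Ifrd2 and Prrc2a encode proteins that act on RNA or its translation. Ifrd2 encodes a relative of interferon-related developmental regulator 1 that binds inactive ribosomes. The gene (ENSMUSG00000010048) lies on the plus strand of chromosome 9 from 107587642 to 107593385 in GRCm38. It had 39.3 CPM in control cells (37.4 to 41.3, 1607 UMIs) and 18.4 CPM in sonKD cells (17 to 20, 591 UMIs). The intervals did not overlap, and the log2 ratio of -1.09 (-1.23 to -0.95) was the lowest of all genes at 10 CPM. Prrc2a (ENSMUSG00000024393; chromosome 17, minus strand, 35149076 to 35164897) encodes a large proline-rich, RNA-binding protein. It had 31.3 CPM in control cells (29.7 to 33.1) and 15.0 CPM in sonKD cells (13.7 to 16.5). Its ratio was -1.06 (-1.21 to -0.91), again with intervals of the levels that did not overlap.

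The spliced Ifrd2 transcript is shown to make the gene structure behind the name of the set visible, because Ifrd2 combined the lowest ratio with the shortest median intron of the 8 genes, 103 bases. Of its 11 introns, 8 were under 150 bases. Each run below is 10 exonic bases before and 10 after the place where such an intron is removed, 5' to 3' on the transcript of GENCODE M21 (GRCm38, chromosome 9), with the last 3 bases of the upstream exon in capitals.
Ifrd2 junction 2, intron of 86 bases: gactgccTGGgtggcgaagc
Ifrd2 junction 3, intron of 104 bases: ctgacaaGAGtgccaagacc
Ifrd2 junction 4, intron of 82 bases: cttaagaAAGggaagggtga
Ifrd2 junction 5, intron of 133 bases: ccggctcCATtgtgcttctg
Ifrd2 junction 6, intron of 85 bases: cgacgtcCAGgacctggtct
Ifrd2 junction 7, intron of 91 bases: tccttgaCAGgcagctgccc
Ifrd2 junction 10, intron of 72 bases: tcacctcCAGaacaatgagc
Ifrd2 junction 11, intron of 103 bases: ctttgaaAAGcacctgtaca
At Ifrd2, 9 of the 11 upstream exons ended in AG, the usual last bases of an exon. In these 8, the exceptions are the exons that end in TGG and CAT. The introns themselves are not shown.

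Ccdc22 and Pigt take part in the traffic and anchoring of membrane proteins. Ccdc22 (ENSMUSG00000031143; chromosome X, minus strand, 7593809 to 7605517) encodes a subunit of the COMMD/CCDC22/CCDC93 complex, which recycles cargo from endosomes. Its level was 21.9 CPM in control cells (20.4 to 23.3) and 10.6 CPM in sonKD cells (9.52 to 11.8), a ratio of -1.04 (-1.23 to -0.86). Of the 8 genes it had the fewest UMIs in cells, 894 and 340, and so the widest interval. Pigt (ENSMUSG00000017721; chromosome 2, plus strand, 164497520 to 164508301) encodes a subunit of the transamidase that attaches GPI anchors to proteins. It was at 34.0 CPM in control cells (32.2 to 35.8) and 17.1 CPM in sonKD cells (15.7 to 18.6), a ratio of -0.99 (-1.13 to -0.85).

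A trio of the genes encode enzymes of mitochondria or of amino sugar metabolism. Idh2 (ENSMUSG00000030541; chromosome 7, minus strand, 80094846 to 80115392) encodes the mitochondrial NADP-dependent isocitrate dehydrogenase. It had 111 CPM in control cells (108 to 114) and 58.1 CPM in sonKD cells (55.5 to 60.8). With 4549 and 1862 UMIs it had the narrowest interval, and its ratio was -0.94 (-1.01 to -0.86). Fam173a (ENSMUSG00000057411; chromosome 17, minus strand, 25790080 to 25792901), named Antkmt in RefSeq, encodes a mitochondrial lysine methyltransferase. It had 27.4 CPM in control cells (25.8 to 29.0) and 13.7 CPM in sonKD cells (12.5 to 15.1), a ratio of -1.0 (-1.16 to -0.83). Amdhd2 (ENSMUSG00000036820; chromosome 17, minus strand, 24155833 to 24163766) encodes the deacetylase of N-acetylglucosamine-6-phosphate. Its level was 34.5 CPM in control cells (32.8 to 36.4) and 17.8 CPM in sonKD cells (16.4 to 19.3), a ratio of -0.96 (-1.10 to -0.82).

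Metrn is the single gene of the set for a secreted protein, meteorin, known for its action on glial cells and neurites. The gene (ENSMUSG00000002274) lies on the minus strand of chromosome 17 from 25793221 to 25797136, 319 bases from Fam173a. It was at 33.2 CPM in control cells (31.4 to 35) and 17.2 CPM in sonKD cells (15.8 to 18.7), a ratio of -0.95 (-1.09 to -0.80). As for the other 7 genes, the intervals of the levels in the libraries did not overlap. The genes were chosen by these ratios and the share of all genes so separated was not computed, so nothing is read from it.

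**Figure D1:**
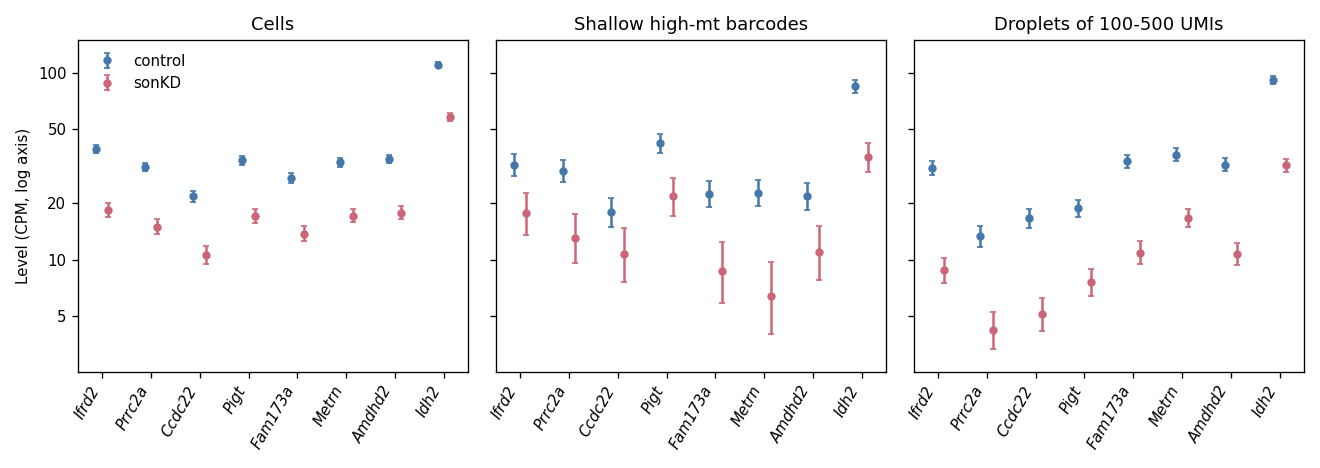
Level of each of the 8 genes in CPM (log axis) in control (blue) and sonKD (red), in cells, in shallow barcodes with over 10% mitochondrial UMIs and in droplets of 100 to 500 UMIs. Points are sums over the barcodes of 1 library and bars are exact Poisson 95% intervals of counting error. In each panel the sonKD point is below the control point for all 8 genes.

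Overlap with other annotated genes limits the reading of some counts. The last 300 transcribed bases of Fam173a are covered on the same strand by the read-through gene AC134908.4, which is not among the listed genes. Of the last 300 bases of Ccdc22, 27.7% are covered on the same strand by Gm36995, also not among the listed genes, and 100% on the opposite strand by Foxp3. Foxp3 itself had 5 UMIs in control cells and 1 in sonKD cells. Ccdc78, which overlaps Fam173a on the opposite strand, had 31 and 19. For the other 6 genes no annotated gene covered the last 300 bases. For Fam173a and Ccdc22, reads from the overlapping transcripts cannot be told apart from their own by position.

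The same comparison was made in barcodes that are not cells by the limits above, from the same 2 libraries. Shallow high-mitochondrial barcodes, with over 500 and under 2500 UMIs and more than 10% of them mitochondrial, numbered 4518 in control and 2054 in sonKD. All 8 genes were lower in sonKD there, with a median ratio of -1.09 beside -0.13 for all genes. Over 7772 genes at 10 CPM in both classes, the ratios followed those in cells, with a Spearman correlation of 0.553. Genes chosen as low in cells thus tended to be low here too, and the count below is no separate support. The ratio was at -0.5 or below for 8 of 8 genes and for 9.18% of the 8519 genes at 10 CPM in these barcodes. That filter was on the mean of both libraries, and Fam173a and Metrn passed it through control, with sonKD levels of 8.71 and 6.39 CPM. Metrn had 154 UMIs or 22.8 CPM in these control barcodes (19.3 to 26.7), and 22 UMIs or 6.39 CPM in those of sonKD (4 to 9.67). That made its ratio of -1.84 (-2.55 to -1.19) the lowest of the 8 and of the 8519 genes that passed the filter in these barcodes. At the other end, Ccdc22 was at 17.9 CPM (14.9 to 21.4) and 10.7 CPM (7.56 to 14.8), and these intervals were close to touching. Its ratio was -0.74 (-1.31 to -0.20). Idh2, with the most UMIs, had levels of 84.7 and 35.4 CPM, a ratio of -1.26 (-1.55 to -0.97). Over 20% mitochondrial UMIs, 7 of the 8 ratios were at -0.5 or below, and Ccdc22 was at -0.35. The share of all genes was not computed at that limit, so this count has nothing to be set against.

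Barcodes with as many UMIs and genes as cells but over 10% mitochondrial UMIs numbered 625 in control and 1056 in sonKD. In these, 7 of the 8 genes were at -0.5 or below, beside 13.4% of all genes. The exception was Ccdc22, for which control had 15.7 CPM (10.7 to 22.3) and sonKD had 12.4 CPM (9.01 to 16.5), with a ratio of -0.35 and an interval of -1.04 to 0.36 that included 0. Pigt was the next highest at -0.60 (-1.08 to -0.12), and Fam173a was lowest at -1.22 (-1.84 to -0.61). Metrn passed the filter of 10 CPM through control, with 8.78 CPM in sonKD. The ratios of all genes followed those in cells, with a Spearman correlation of 0.557, so the count is no separate support. Shallow barcodes with at most 10% mitochondrial UMIs, 1276 and 998 in number, had few UMIs of each gene. There 8 of 8 genes were at -0.5 or below, beside 15.4% of all genes, with a median of -1.12. Ccdc22, Metrn and Amdhd2 passed the filter through control, with sonKD levels of 8.61, 5.38 and 6.46 CPM. The Spearman correlation with the ratios in cells was 0.447, so this count is no separate support either. The intervals of Prrc2a, Ccdc22 and Pigt included 0, and Amdhd2, at 47 UMIs against 6, had the lowest ratio of -2.46 (-3.97 to -1.23).

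Droplets of 100 to 500 UMIs, which mostly hold free RNA from broken cells and no cell, numbered 59886 in control and 62449 in sonKD. All 8 genes were lower in sonKD there too, and the median ratio of -1.60 lay further below 0 than in cells, with -0.19 for all genes. Over 5419 genes at 10 CPM in both classes, the Spearman correlation with the ratios in cells was 0.8. Genes chosen as low in cells thus tended to be low in droplets too, and the count below is no separate support. A ratio of -0.5 or below was met by 8 of 8 genes and by 14.1% of the 5458 genes at 10 CPM in droplets, a filter that Prrc2a did not pass. The filter was on the mean of both libraries. Ifrd2, Ccdc22 and Pigt passed it through control, with sonKD levels of 8.74, 5.09 and 7.56 CPM. Control droplets held Ifrd2 at 31 CPM (28.5 to 33.6) and sonKD droplets at 8.74 CPM (7.45 to 10.2), a ratio of -1.83 (-2.09 to -1.57). Its sonKD level was thus 28.2% of control, against 47.0% in cells. Ccdc22 had 16.6 CPM and 5.09 CPM, a ratio of -1.70 (-2.05 to -1.37), and Prrc2a had 13.3 and 4.18 CPM, a ratio of -1.67 (-2.05 to -1.29). Fam173a at -1.62, Amdhd2 at -1.59, Idh2 at -1.52 and Pigt at -1.32 followed. Metrn, at 36.5 CPM (33.8 to 39.4) and 16.7 CPM (14.9 to 18.6), had the highest ratio of -1.13 (-1.33 to -0.93), an interval that included its ratio in cells.

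The siRNA target Son had a ratio of -1.47 (-1.62 to -1.32) in droplets and -0.67 in cells. It was at -0.69 in high-mitochondrial barcodes at cell depth and at -0.68 in shallow ones, near its ratio in cells. Ratios of all genes were spread more widely in droplets, with a 5th percentile of -0.70 against -0.40 in cells. A link between the ratios of Son and of the 8 genes was not tested. The share of ribosomal protein genes was 30.9% of control and 35.7% of sonKD droplet UMIs, and the part of this in the ratios was not tested beyond rescaling. Without ribosomal protein and mitochondrial genes in the total, the ratios in droplets lay between -1.72 and -1.03. The libraries had 1075 droplet barcodes in common, and without these the ratios lay between -1.85 and -1.14. Leaving out the 2 barcodes that were cells in both libraries, or the 2 shallow high-mitochondrial ones, kept 8 of 8 genes at -0.5 or below in both classes. In droplets of 100 to 250 UMIs, 6 of 8 genes were at -0.5 or below, with Metrn at -0.41 and Prrc2a at -0.37. The share of all genes was not computed for these droplets, so the count has nothing to be set against. Barcodes under 100 UMIs gave a median of -1.12, with 8 of 8 genes at -0.5 or below beside 19.6% of all genes. Their ratios also followed those in cells, with a Spearman correlation of 0.517, so this count is no separate support.

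**Figure D2:**
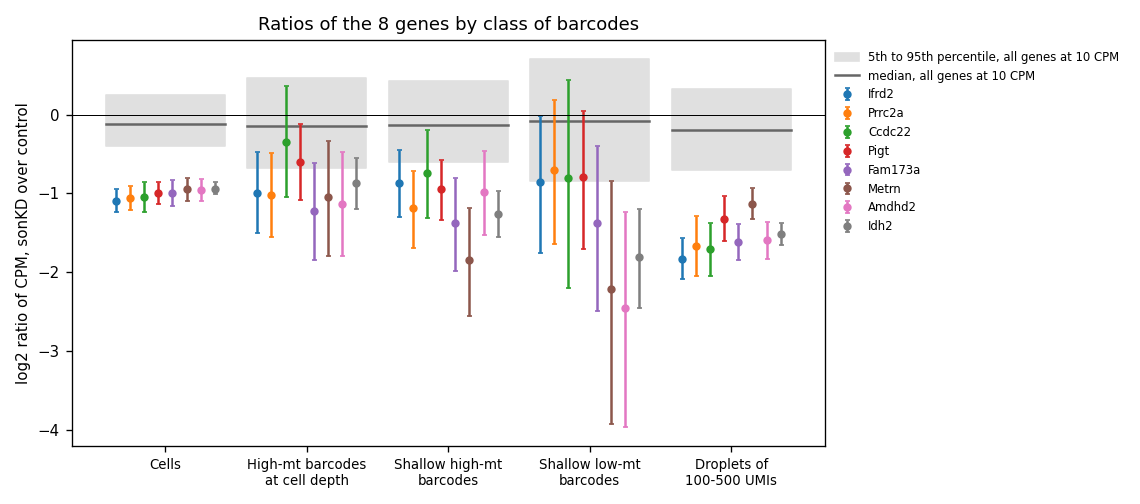
Log2 ratio of sonKD over control for each of the 8 genes in 5 classes of barcodes, with exact 95% intervals of counting error. Grey bands run from the 5th to the 95th percentile of all genes at 10 CPM in that class, with the median as a line. In droplets all 8 points lie below the band and range from -1.83 to -1.13. Inside the band lie Ccdc22 and Pigt among high-mitochondrial barcodes at cell depth, at -0.35 and -0.60, and Prrc2a, Ccdc22 and Pigt among shallow low-mitochondrial barcodes.

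Within a library, droplets and cells held the genes at unlike relative levels. For Fam173a the log2 ratio of droplets over cells was 0.30 in control (0.15 to 0.44) and -0.33 in sonKD (-0.57 to -0.09), so that the sign differed between the libraries. For Metrn it was 0.14 in control (0.00 to 0.27) and -0.05 in sonKD, where the interval of -0.25 to 0.16 included 0. Prrc2a was lower in droplets than in cells in both libraries, at -1.24 (-1.44 to -1.04) in control and -1.85 (-2.21 to -1.50) in sonKD. For each of the 8 genes the droplet-over-cell value was lower in sonKD than in control, which restates that each ratio was lower in droplets than in cells. The intervals of the libraries overlapped for Metrn and for Pigt, at -1.02 to -0.68 in control and -1.46 to -0.91 in sonKD. The share of all genes with a lower value in sonKD was not computed.

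Because sonKD cells were deeper, the 8 genes were also compared between cells of like depth. The bins below are parts of the cells whose ratios chose the genes, so their counts are a description and nothing is read from them. Among 514 control and 172 sonKD cells of 2500 to 5000 UMIs, the median ratio was -0.89, and 8 of 8 genes were at -0.5 or below beside 10.3% of all genes. The intervals of Ccdc22, Fam173a, Metrn and Amdhd2 included 0 there, at 7 to 11 UMIs each in sonKD. From 5000 to 10000 UMIs the median was -1.15, with 8 of 8 genes beside 8.31% of all genes. The deeper bins gave -1.03 from 10000 to 20000 UMIs and -1.11 above, with 8 of 8 genes in each, beside 6.73% and 8.79% of all genes, and the interval of Metrn in the deepest bin reached 0.01. With cells split by mitochondrial share, the medians were -0.80 up to 2.5%, -1.01 from 2.5% to 5% and -0.95 from 5% to 10%. In these mitochondrial bins 8 of 8 genes were at -0.5 or below, beside 7.16%, 2.30% and 8.59% of all genes.

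A gene at this level is found in few cells, so the share of cells with a UMI was taken after each cell was thinned to 2500 UMIs. In control, Ifrd2 was detected in 9.14% of 4978 cells (8.35 to 9.97), and in sonKD in 4.03% of 2731 cells (3.32 to 4.83). The difference in percentage points was -5.11 (-6.21 to -3.99), and without thinning the shares were 26.3% and 18.2%. Idh2 was detected in 23.5% (22.4 to 24.7) and 13.3% (12 to 14.6) of the cells, or 55.5% and 43.0% without thinning. For the other 6 genes the thinned shares lay between 5.02% (Ccdc22) and 8.32% (Pigt) in control, and between 2.31% (Ccdc22) and 4.17% (Metrn and Amdhd2) in sonKD. Without thinning these 6 genes were found in 16.2% to 23.9% of control cells and 11.1% to 17.5% of sonKD cells. All 8 shares were lower in sonKD, and no interval of a share overlapped that of the other library. Nothing is read from this, because the same cells chose the genes and the share of all genes so separated was not computed. No cell type without these genes was at hand as a background, and free RNA held them at 13.3 to 92.0 CPM in control droplets and 4.18 to 32.1 CPM in sonKD droplets.

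Positive cells carried about 1 UMI each in both libraries. Ifrd2 had 1.05 UMIs per positive cell in control and 1.04 in sonKD, and Idh2 had 1.17 and 1.10. Cells with at least 2 UMIs of Idh2 made up 3.50% of control and 1.21% of sonKD cells. Counted over all 8 genes, cells with no UMI of any of them at this depth made up 44.7% in control (43.3 to 46.1) and 67.9% in sonKD (66.1 to 69.6). Cells with at least 3 of the 8 genes made up 3.21% (2.74 to 3.74) and 0.622% (0.363 to 0.995). The highest number found in a cell was 5 in control and 4 in sonKD. These shares follow from the choice of the genes by their lower levels in the same cells. No other set of genes is given beside them, so nothing is read from them.

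**Figure D3:**
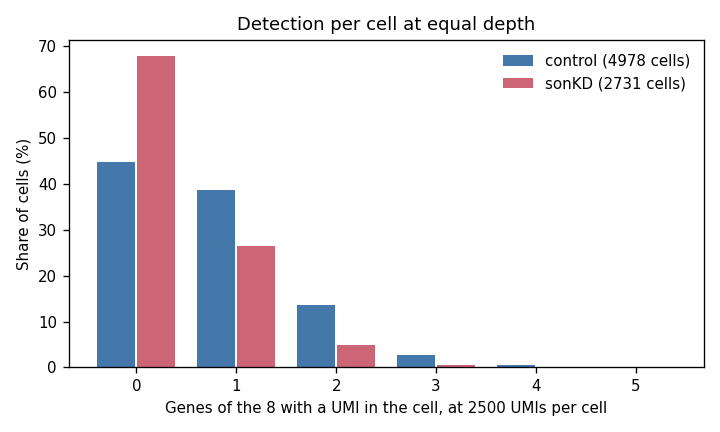
Share of cells (%) by the number of the 8 genes with at least 1 UMI, after thinning every cell to 2500 UMIs, in 4978 control cells (blue) and 2731 sonKD cells (red). The bar at 0 genes reaches 44.7% in control and 67.9% in sonKD, and the bars from 1 gene upwards are lower in sonKD. The genes were chosen by lower levels in these same sonKD cells.

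Cells within each library differ in their own Son count, and the 8 genes were compared along it. This split was chosen after the data were seen and was run at 4 settings. At 2500 UMIs per cell, 33.8% of control cells and 22.0% of sonKD cells had a Son UMI. The summed level of the 8 genes in control was 334 CPM in cells without a Son UMI and 317 CPM in cells with one, a log2 ratio of -0.08 (-0.17 to 0.02). In sonKD it was 148 CPM without and 208 CPM with a Son UMI, a ratio of 0.49 (0.30 to 0.68). The median of all genes was 0.03 in control and 0.06 in sonKD. Another random seed gave -0.04 and 0.50, thinning to 5000 UMIs gave -0.01 and 0.51, and thinning to 10000 UMIs gave 0.04 (-0.08 to 0.16) and 0.52 (0.42 to 0.63).

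At 10000 UMIs per cell, 207 control cells had no Son UMI and 782 had one or more, against 826 and 1058 sonKD cells. In control, the summed level was 333 CPM (309 to 359) at 0 Son UMIs, 352 CPM (331 to 374) at 1 and 338 CPM (322 to 354) at 2 or more. In sonKD it was 137 CPM (129 to 145) at 0, 162 CPM (152 to 173) at 1 and 235 CPM (222 to 249) at 2 or more. The 3 sonKD intervals did not overlap one another, while those of control did, and the highest sonKD value was still below every control value. The genes had been chosen for lower levels in sonKD cells, and no other set of genes was summed along these 3 groups. Nothing is therefore read from these intervals. The median mitochondrial share was 3.33% to 3.44% in the 3 control groups and 3.72% to 3.9% in the 3 sonKD groups. Median depth before thinning ran from 11460 to 11910 UMIs in control and from 12573 to 13098 in sonKD, in both with the lowest value at 0 Son UMIs.

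**Figure D4:**
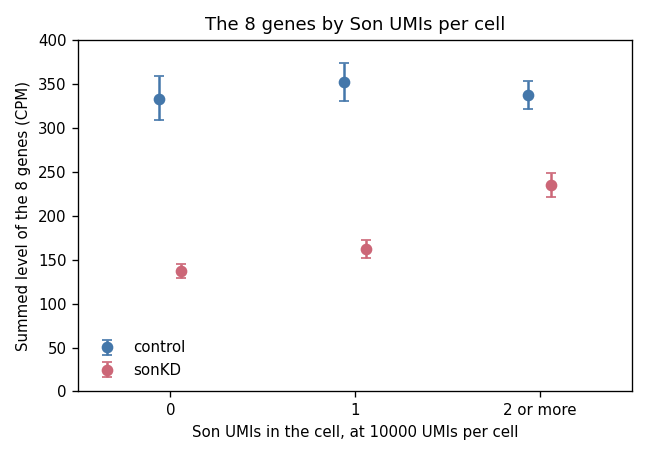
Summed level of the 8 genes (CPM, from 0) in cells with 0, 1 and 2 or more Son UMIs, after thinning to 10000 UMIs per cell, with exact Poisson 95% intervals. Control (blue) lies between 333 and 352 CPM, and sonKD (red) runs from 137 to 235 CPM.

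The 8 genes had been chosen by low levels in these same sonKD cells, so nothing is read from the counts by gene that follow. At 10000 UMIs per cell, 6 of the 8 genes in sonKD had an interval above 0 for Son-positive over Son-zero cells, beside 14.6% of all genes. In control 1 gene did, Ifrd2 at 0.42 (0.04 to 0.82), beside 6.29% of all genes. Ccdc22 showed the highest sonKD value, from 6.66 CPM in Son-zero cells to 13.7 CPM in Son-positive cells, a ratio of 1.04 (0.58 to 1.52). Fam173a followed with 9.44 and 16.6 CPM, a ratio of 0.82 (0.42 to 1.22). In sonKD, Ccdc22 and Fam173a thus reached 10 CPM in Son-positive cells alone. The intervals of Pigt, at 0.20 (-0.14 to 0.55), and Metrn, at 0.29 (-0.02 to 0.61), included 0. At 2500 UMIs the intervals of 2 genes in sonKD, Ccdc22 and Idh2, lay above 0, beside 6.74% of all genes, and those of 0 genes in control, beside 7.23%. Prrc2a changed sign between these depths in sonKD, from -0.15 (-1.01 to 0.63) to 0.44 (0.09 to 0.80).

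The structure that names the set was read from GENCODE M21. All 8 genes lay in the top 20% by transcript GC content (55.2% or more) and the bottom 20% by median intron length (587 bases or less) among 7929 genes with several exons at 10 CPM, whose medians were 49.4% and 1530 bases. Because the set is named for this structure, nothing is read from the match. Among the genes ranked between them in cells, Lmnb2 and Vars also met both limits and Lefty2 did not. GC content was highest in Amdhd2, at 60.9%, and Prrc2a, at 60.6%, and lowest in Idh2, at 55.4%. Idh2 also had the longest median intron, 457.5 bases, and a longest intron of 11948 bases. The genes were not alike in size, with 4 exons in Metrn, 5 in Fam173a and 31 in Prrc2a, and total intron lengths from 977 bases in Fam173a to 18802 in Idh2. Each had at least 1 intron of 101 bases or less.

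The same corner of GC content and intron length held many of the other genes with low ratios. Of 785 genes in it, 102 (13%) were at -0.5 or below, against 189 (2.38%) of the 7929. With TMM factors these shares were 6.88% and 1.17%. These 102 were 54.0% of the 189, while the corner held 9.90% of the genes. Without the 8 genes, 94 of 777 (12.1%) were at -0.5 or below, against 1.22% of genes outside the corner, and the medians were -0.20 and -0.11. Most genes of the corner thus did not share the low ratios of the 8. In droplets, where ratios were spread more widely, the shares were 30.0% of 533 genes without the 8 and 12.3% outside. Shallow high-mitochondrial barcodes gave 16.2% and 8.17%. In high-mitochondrial barcodes at cell depth the shares were 14.9% and 11.9%, and there the median of the corner without the 8, -0.11, lay above the -0.15 of the genes outside. Along GC content alone the share went from 0.315% in the lowest of 5 equal parts to 7.57% in the highest, and along intron length alone from 8.51% in the shortest of 5 parts to 0.442% in the longest. In the split by Son count at 10000 UMIs, the corner without the 8 had a median ratio of 0.07 in sonKD and -0.02 in control, beside 0.05 in both libraries for all 7929 genes. The 94 genes within it, which had been picked by their low sonKD ratio, had a median of 0.33 in sonKD, with a 5th percentile of -0.06, and of -0.05 in control.

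**Figure D5:**
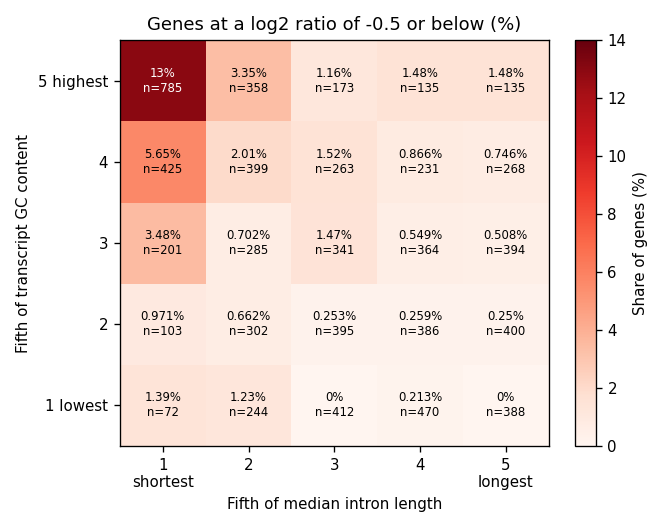
Share of genes (%) with a log2 ratio of -0.5 or below in cells, for 7929 genes with several exons at 10 CPM, cut into 5 equal parts by transcript GC content (vertical) and 5 by median intron length (horizontal), with the number of genes in each field. The highest share, 13%, is in the field of highest GC content and shortest introns, which holds the 8 genes.

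Exon ends were compared because splice sites are read there. Of the 95 exon junctions of the 8 genes, 66.3% had an upstream exon that ended in AG, against 55.0% of 8926 junctions in the rest of the corner and 56.9% of 89773 junctions overall. Pigt, with 5 of 11, Metrn, with 1 of 3, and Fam173a, with 2 of 4, did not follow Ifrd2 in this. Introns under 150 bases made up 44.2% of the introns of the 8 genes, 36.7% in the rest of the corner and 10.2% overall. By gene the count of such introns was 11 of 30 in Prrc2a, 7 of 16 in Ccdc22, 6 of 10 in Amdhd2 and 3 of 10 in Idh2. These counts describe the annotation of genes already named for short introns, and intron retention was not measured here.

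The promoters of 3 of the 8 genes are shown because they differ in their motifs. Ifrd2 holds GC boxes, Amdhd2 holds 3 copies of an E-box, and Ccdc22 has the lowest GC content. Each run is the RefSeq window of 300 bases in GRCm38.p6, from 250 before to 50 after the start, with matches on either strand in capitals. The motifs searched were the GC box GGGCGG, the site CCGGAAG of the ETS family, the E-box motif CACGTG and the TATA box motif TATAAA, and no base was shared between matches of different motifs.
Ifrd2 promoter, chr9:107587468-107587767, plus strand: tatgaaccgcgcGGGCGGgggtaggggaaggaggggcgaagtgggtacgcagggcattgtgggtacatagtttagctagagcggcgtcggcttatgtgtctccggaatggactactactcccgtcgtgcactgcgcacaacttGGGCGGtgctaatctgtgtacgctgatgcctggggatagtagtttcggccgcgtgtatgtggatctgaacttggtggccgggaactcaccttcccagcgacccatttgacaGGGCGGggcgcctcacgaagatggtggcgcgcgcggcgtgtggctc
Amdhd2 promoter, chr17:24163684-24163983, minus strand: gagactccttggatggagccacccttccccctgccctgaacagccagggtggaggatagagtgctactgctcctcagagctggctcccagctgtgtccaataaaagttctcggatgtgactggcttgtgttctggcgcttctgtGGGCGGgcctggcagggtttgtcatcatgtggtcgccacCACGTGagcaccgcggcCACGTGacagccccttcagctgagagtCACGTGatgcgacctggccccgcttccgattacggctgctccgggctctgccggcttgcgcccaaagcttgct
Ccdc22 promoter, chrX:7605371-7605670, minus strand: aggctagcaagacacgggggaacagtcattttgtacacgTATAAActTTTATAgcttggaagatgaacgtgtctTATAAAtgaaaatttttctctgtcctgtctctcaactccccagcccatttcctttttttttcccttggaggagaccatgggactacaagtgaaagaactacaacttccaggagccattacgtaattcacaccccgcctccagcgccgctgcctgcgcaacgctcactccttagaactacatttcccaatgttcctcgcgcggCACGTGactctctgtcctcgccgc
GGGCGG was found in the windows of 6 of the 8 genes and in 68.6% of 6472 promoters of genes at 10 CPM. CCGGAAG was found in 2 of 8 (Pigt and Fam173a) against 22.7%, CACGTG in 2 of 8 (Ccdc22 and Amdhd2) against 11.5%, and TATAAA in 1 of 8 (Ccdc22) against 6.29%. At least 3 copies of CACGTG, as in Amdhd2, were in 0.216% of these promoters. Promoter GC content ran from 48.7% in Ccdc22 to 69.3% in Metrn, with a median of 61.7% over the 6472. A match describes letters in the window and no more. The Amdhd2 window reaches into the annotated span of Atp6v0c, whose nearer edge lies 99 bases from Amdhd2.

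Chromosomal neighbours were examined because 4 of the 8 genes, Prrc2a, Fam173a, Metrn and Amdhd2, lie on chromosome 17. The 413 genes at 10 CPM on that chromosome had a median of -0.12, the same as all genes, while 6.05% of them were at -0.5 or below, against 2.39% of all genes. The 25 genes behind the 6.05% include these 4, which had been chosen by their low ratios. The nearest gene at 10 CPM on each side was taken for each of the 8, which gave 14 genes outside the set with a median ratio of -0.06. Of these 1 was at -0.5 or below, Stub1, a ubiquitin ligase gene 33368 bases from Metrn, with 187 CPM in control and 125 CPM in sonKD and a ratio of -0.58, or -0.49 with TMM factors. Atp6v0c, a proton pump subunit gene 99 bases from Amdhd2, was at 604 and 579 CPM, a ratio of -0.06 (-0.09 to -0.03). Zfp710, 672 bases from Idh2, was at 80.3 and 76.8 CPM, a ratio of -0.07 (-0.14 to 0.01). Bag6, a chaperone gene 1753 bases from Prrc2a with a GC content of 59.9% and a median intron of 215 bases, was at -0.21 (-0.31 to -0.10). Fam173a and Metrn were each other's neighbours.

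Relatives and partners of the 8 genes are given beside the 2.39% of all genes at -0.5 or below, a share at which a list of this size would mostly hold none. The paralogs Ifrd1 at -0.22, Prrc2c at -0.10, Idh1 at -0.09 and Prrc2b at -0.08 all lay above -0.5, and Metrnl, with 10 and 8 UMIs, was below the filter. Of 10 other citric acid cycle genes, 0 were at -0.5 or below, with a median of -0.12. Idh3g, for a subunit of the NAD-dependent isocitrate dehydrogenase, was lowest at -0.39. The fumarase gene Fh1, at 0.38, and Idh3b, at 0.21, were highest. Among the 4 other genes of the GPI transamidase, Gpaa1 was at -0.53 (18.6 and 12.9 CPM) and Pigs at -0.45, while Pigu was at -0.21 and Pigk at -0.10. With TMM factors Gpaa1 was at -0.44, which takes it out of the count at -0.5 or below. Gpaa1 was also the sole one of these 4 in the GC-rich short-intron corner, with a median intron of 91 bases.

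The partners of Ccdc22 numbered 14 at 10 CPM, the COMMD proteins, Ccdc93 and retriever subunits, and 0 were at -0.5 or below, with 7 ratios below 0 and 7 above. Commd4 at -0.46 and Commd8 at -0.34 were lowest, and Commd3 at 0.41 and Commd1 at 0.32 were highest. Of 8 other genes of amino sugar metabolism, 1 was at -0.5 or below, Renbp, the N-acylglucosamine epimerase gene, at 68.8 and 45.9 CPM and a ratio of -0.59, or -0.50 with TMM factors. Uap1 and Nagk were at -0.29, and Gnpda1, at 0.19, was highest.

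Over cells, high-mitochondrial barcodes at cell depth, shallow high-mitochondrial barcodes and droplets, the genes outside the set with ratios nearest to the medians of the 8 were sought among 7851 genes with at least 20 control UMIs in each class. Nearness was the Euclidean distance over these 4 ratios. Rnaseh2c, for a subunit of ribonuclease H2, came first at a distance of 0.314, with -0.82 in cells and -1.61 in droplets. The histone methyltransferase gene Ehmt2, at -0.87 and -1.36, Mettl26, at -0.75 and -1.46, the lamin gene Lmnb2, at -1.02 and -1.28, and Tmem147, at -0.75 and -1.25, followed. Of these 5 genes, 4 lay in the corner of high GC content and short introns, and Tmem147 missed it with a GC content of 55.1% and a median intron of 92 bases. These ratios come from the same libraries as those of the 8 genes.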

How the data were processed

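The values in the deposited matrices are raw UMI counts, by gene and barcode, for 1 control and 1 sonKD library. Per the submitters' processing notes, the authors used Cell Ranger 7.1.0 and mm10, and the counting of intronic reads and the annotation are not given in the sources used here. The matrices list all barcodes, and groups come from the sample titles.

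Counts were summed per class of barcodes and scaled to CPM. The limit of 10 CPM applied to the mean of both libraries in a class, so a gene could pass through 1 library alone. Log2 ratios had no pseudocount, and counts below 3 were raised to 3. Levels have exact Poisson intervals, ratios have exact conditional binomial intervals, and shares have Clopper-Pearson intervals. Differences between shares combine both intervals. With 1 library per group there was no test. Cells were thinned at random without replacement, and at 2500 UMIs no cell was left out. Scrublet (scanpy 1.11.5) marked 0.0603% of control and 0.0366% of sonKD cells, too few for a working call, so no doublets were removed. TMM factors came from edgeR 4.0.16.

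Gene structures are from GENCODE M21 on GRCm38, where 32235 of 32285 identifiers matched. All 8 genes matched a RefSeq promoter. The members and lists were chosen with earlier results of these data known. Named besides them are nearest neighbours, the 5 most alike genes and the 2 lowest and highest of each list, of which 1 gene is not reported here. The names Dscr3 and Dennd10 were read as the listed symbols Vps26c and Fam45a, and Fam173b was not found. The split by Son count, the bins of depth and mitochondrial share, the grid of GC content and intron length, exon junctions, motifs and barcodes under 100 UMIs were chosen after the data were seen.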

Additional observations from a re-analysis of the deposited data

Results flagged for a closer look

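The summed level of the 8 genes along the Son count of the cells drew attention because its sign at 2500 UMIs per cell was not the same in the 2 libraries. Cells with a Son UMI had a log2 ratio over cells without one of -0.08 in control and 0.49 in sonKD, at 2500 UMIs per cell. The control interval of -0.17 to 0.02 included 0, so control showed no direction. At 10000 UMIs per cell both values were above 0, at 0.04 (-0.08 to 0.16) in control and 0.52 in sonKD. Each value comes from 1 library, the split was chosen after the data were seen, and the difference between the libraries was not tested. The genes themselves had been chosen by low levels in these same sonKD cells.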

How the results depend on the processing

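No paired analysis was possible because each group held 1 sample, and for the same reason no sample could be left out. Of 136 values under alternatives, 115 stayed inside the counting interval or within 1.5 times the count, 20 moved and 1 reversed. The reversed value was the summed ratio of Son-positive over Son-zero cells in control, -0.08 at 2500 UMIs and 0.04 at 10000 UMIs, and the cause was not tested. The 72 ratios of single genes in cells kept their sign, with 70 inside the interval, and ranged from -1.33 to -0.84. The 2 outside were Prrc2a at -1.33 after thinning to 2500 UMIs and Idh2 at -0.85 with TMM factors. The median difference in detection, -4.13 percentage points at 2500 UMIs, was -7.29 at 5000 UMIs, with 514 control and 172 sonKD cells left out, and -6.07 without thinning, since detection rises with depth.

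TMM factors shifted the median of all genes by 0.09. They took the share at -0.5 or below from 13% to 6.88% in the GC-rich short-intron corner and from 2.38% to 1.17% among all genes with several exons. With a mean of at least 50 CPM, which 1 of the 8 genes passed, these shares were 9.57% and 1.59%, and with no filter 14.9% and 7.32%. Removing the highest Scrublet scores, 198 and 60 cells, gave ratios of the 8 genes from -1.11 to -0.93. Depth limits the shallow low-mitochondrial barcodes and the cells under 5000 UMIs, where 5 to 17 and 7 to 11 sonKD UMIs stood behind each gene but Idh2.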
